A study of Mus musculus with 4 samples.

Results

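The 10 genes described here are Apoe, Trem2, Tyrobp, Cst7, Itgax, Spp1, Lpl, Ctsd, Ctsb and Axl, which are widely used as markers of activated microglia. They were taken by their symbols from the 32286 features of the deposited matrices, and all 10 had a row in each of the 4 libraries. The libraries came from C57BL/6N mice, whose primary motor cortex was profiled nucleus by nucleus with droplet RNA sequencing and unique molecular identifiers (UMIs), and each group had 1 library. The AAV-SIK3-Ex13del library came from cortex given local AAV8 carrying FLAG-tagged SIK3(Ex13del), which the design text calls a gain-of-function form of the kinase SIK3. The AAV-SIK3-WT library came from cortex given the same vector with FLAG-tagged wild-type SIK3, and both vectors used the human synapsin promoter, which is active in neurons. The Sleep-deprivation library came from mice kept awake by gentle handling, and the Ad-lib-sleep library from mice without sleep deprivation. The labels give neither the number of animals in a library nor their age. With 1 library a group no test was possible, and a difference between treatments and a difference between single libraries cannot be told apart. The intervals below are exact 95% intervals (Poisson for a level, conditional for a ratio, Clopper-Pearson for a share) and cover counting error only.

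Microglia are the resident macrophages of the brain. Near damage, plaques or dying cells they lower genes of the resting state such as P2ry12 and raise a program that includes the genes studied here, and in mice the later part of that program depends on Trem2. Trem2 is a surface receptor for lipids and lipoproteins, and Tyrobp (DAP12) is the adaptor through which it signals. Apoe is a lipid carrier that Trem2 binds, and Lpl hydrolyses the triglycerides of lipoproteins. Itgax (CD11c) is an integrin chain, and Axl is a receptor tyrosine kinase that recognises phosphatidylserine on dying cells through Gas6. Cst7 (cystatin F) inhibits cysteine cathepsins, Spp1 (osteopontin) is a secreted ligand of integrins and Cd44, and Ctsd and Ctsb are proteases of the lysosome.

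On the mm10 build the genes lie at these places, each coding for a protein. Trem2 (ENSMUSG00000023992) spans chr17:48346401-48354147 on the + strand and Tyrobp (ENSMUSG00000030579) chr7:30413760-30417585 on the + strand. Apoe (ENSMUSG00000002985) spans chr7:19696109-19699188 on the − strand and Lpl (ENSMUSG00000015568) chr8:68880491-68907448 on the + strand. Itgax (ENSMUSG00000030789) spans chr7:128129547-128150657 on the + strand and Axl (ENSMUSG00000002602) chr7:25757273-25788705 on the − strand. Cst7 (ENSMUSG00000068129) spans chr2:150570415-150578944 and Spp1 (ENSMUSG00000029304) chr5:104435118-104441050, both on the + strand. Ctsd (ENSMUSG00000007891) spans chr7:142375911-142388038 on the − strand. Ctsb (ENSMUSG00000021939) spans chr14:63122462-63145923 on the + strand and overlaps Fdft1, which lies on the other strand.

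The bases just before the start of 5 of these genes are printed, namely those in which 1 of the motifs below was found and, beside them, those of Axl. Among the genes with at least 20 UMIs in microglia, Axl had the highest ratio of AAV-SIK3-Ex13del to AAV-SIK3-WT. The printed bases are given for these 5 genes only. These bases are RefSeq sequence of GRCm38.p6, read 5′ to 3′ on the strand of the gene and without bases of the gene's own exons. Capitals mark a match to TGANTCA (a form of the AP-1 motif), GAGGAAGT (a form of the ETS motif) or CACGTG (the E-box that TFE3 and TFEB can bind), searched on both strands.
Trem2, chr17:48346151-48346400 (+): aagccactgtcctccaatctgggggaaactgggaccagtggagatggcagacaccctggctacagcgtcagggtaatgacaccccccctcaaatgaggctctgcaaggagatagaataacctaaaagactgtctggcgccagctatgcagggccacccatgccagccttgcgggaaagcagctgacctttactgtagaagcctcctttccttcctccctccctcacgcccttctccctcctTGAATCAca
Itgax, chr7:128129300-128129546 (+): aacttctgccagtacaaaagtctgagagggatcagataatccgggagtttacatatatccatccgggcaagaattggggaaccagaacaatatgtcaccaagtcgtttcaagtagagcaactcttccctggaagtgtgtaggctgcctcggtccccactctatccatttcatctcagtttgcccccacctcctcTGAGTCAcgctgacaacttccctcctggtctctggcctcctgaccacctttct
Axl, chr7:25788734-25788983 (-): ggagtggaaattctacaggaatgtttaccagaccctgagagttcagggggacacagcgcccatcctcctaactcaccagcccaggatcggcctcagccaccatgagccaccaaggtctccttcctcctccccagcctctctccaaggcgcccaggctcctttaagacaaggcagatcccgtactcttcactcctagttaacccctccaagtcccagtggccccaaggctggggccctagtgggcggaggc
Spp1, chr5:104434861-104435110 (+): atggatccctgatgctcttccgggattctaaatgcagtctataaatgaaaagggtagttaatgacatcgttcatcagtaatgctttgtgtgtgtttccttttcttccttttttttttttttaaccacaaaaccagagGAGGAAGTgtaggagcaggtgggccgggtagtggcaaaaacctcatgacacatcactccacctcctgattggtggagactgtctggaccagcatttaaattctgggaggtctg
Ctsd, chr7:142388039-142388077 (-): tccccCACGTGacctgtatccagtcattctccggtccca
TGANTCA stood 9 bases before the start of Trem2 and 56 bases before that of Itgax, and GAGGAAGT stood 113 bases before that of Spp1. These distances are counted from the start of the RefSeq gene. For Ctsd that start lies inside the span given above, so the 39 bases shown adjoin the span, while their CACGTG stood 245 bases before the RefSeq start and another, not shown, 98 bases before it. Of 32851 RefSeq windows of 250 bases, 6.75% held TGANTCA, 2.44% held GAGGAAGT and 6.02% held CACGTG. Among the 7 of the 10 genes that had such a window, 2 held TGANTCA, 1 held GAGGAAGT and 1 held CACGTG, and the window of Axl held none of them. A match describes letters only.

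The libraries held 43655557, 47662932, 49422196 and 54070503 UMIs in the AAV-SIK3-Ex13del, AAV-SIK3-WT, Sleep-deprivation and Ad-lib-sleep libraries. After the filters, 5512, 6352, 5302 and 8242 nuclei were kept, and any pair of libraries shared 9 to 16 cell barcodes. Microglia were 208, 214, 87 and 222 of them, or 3.77%, 3.37%, 1.64% and 2.69% of the kept nuclei. All 10 microglial markers were highest in this class, they summed to 7522, 7304, 8043 and 7792 CPM (UMIs per 1000000 UMIs of the class) in the same order, and none was at 0. The class also held RNA of other cells. Markers of excitatory neurons summed to 1688, 2351, 2179 and 1991 CPM in it, and those of astrocytes to 1029, 1258, 1094 and 1016 CPM. The neuronal sum was thus lowest in AAV-SIK3-Ex13del, and where this RNA came from was not tested. The markers of the dissected tissue did not all belong to cortex, since 418, 223, 252 and 301 nuclei carried the markers of striatal projection neurons. A cluster of 28, 38, 40 and 61 nuclei (0.508%, 0.598%, 0.754% and 0.740%) carried microglial markers together with those of other cells, and a threshold set after seeing the data kept it out of the class. Another cluster, of low depth and without a name, held 9.62%, 10.6%, 25.3% and 6.02% of the nuclei.

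Of the 10 genes, 6 had their highest mean level over the 4 libraries in microglia, namely Trem2, Tyrobp, Cst7, Itgax, Ctsd and Ctsb. The other 4 had it elsewhere: Apoe and Spp1 in leptomeningeal fibroblasts, Axl in mural cells and Lpl in striatal projection neurons. Trem2 averaged 189 CPM in microglia (160 to 210 over the libraries) and 12.3 CPM in mural cells, the next class, which is 15.4 times less, and microglia were higher in 4 of 4 libraries. Tyrobp averaged 103 CPM in microglia (71.5 to 143) and 36.1 CPM in leptomeningeal fibroblasts (21.1 to 49.8), so its ranges did not overlap either.

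The lysosomal proteases followed the same order with a smaller step. Ctsd averaged 368 CPM in microglia (316 to 486) and 147 CPM in leptomeningeal fibroblasts (112 to 175). Ctsb averaged 290 CPM in microglia (214 to 411), 176 CPM in mural cells (128 to 217) and 173 CPM in leptomeningeal fibroblasts. The ranges of Ctsb in microglia and in mural cells overlapped between 214 and 217 CPM, although microglia were higher in 4 of 4 libraries. Itgax was scarce everywhere, with 28 UMIs in all kept nuclei, of which 16 (57.1%) were in microglia. Cst7 was highest in microglia only through the AAV-SIK3-Ex13del library, and microglia held 4 of its 133 UMIs (3.01%).

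Apoe was most abundant outside microglia. It averaged 2248 CPM in leptomeningeal fibroblasts, 2097 CPM in mural cells, 1641 CPM in astrocytes, 1528 CPM in endothelial cells and 834 CPM in microglia. Microglia and oligodendrocytes, next in order at 750 CPM, did not differ beyond their spread, since microglia were higher in 3 of 4 libraries and the ranges overlapped. Microglia held 1230 of the 52884 Apoe UMIs (2.33%), against 269 of the 811 Trem2 UMIs (33.2%). In the neuron classes Apoe averaged 140 to 184 CPM.

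Spp1 averaged 123 CPM in leptomeningeal fibroblasts (67.8 to 218) and 83.7 CPM in mural cells (52.4 to 121), against 5.93 CPM in microglia. Axl averaged 68.7 CPM in mural cells (49.0 to 95.3), 37.3 CPM in astrocytes (32.9 to 40.7) and 12.3 CPM in microglia (0 to 44.4). Only in the AAV-SIK3-Ex13del library was Axl higher in microglia than in astrocytes, at 44.4 and 40.7 CPM. Lpl averaged 26.8 CPM in striatal projection neurons (21.5 to 35.2) and 10.9 CPM in microglia (0 to 23.4).

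**Figure D1:**
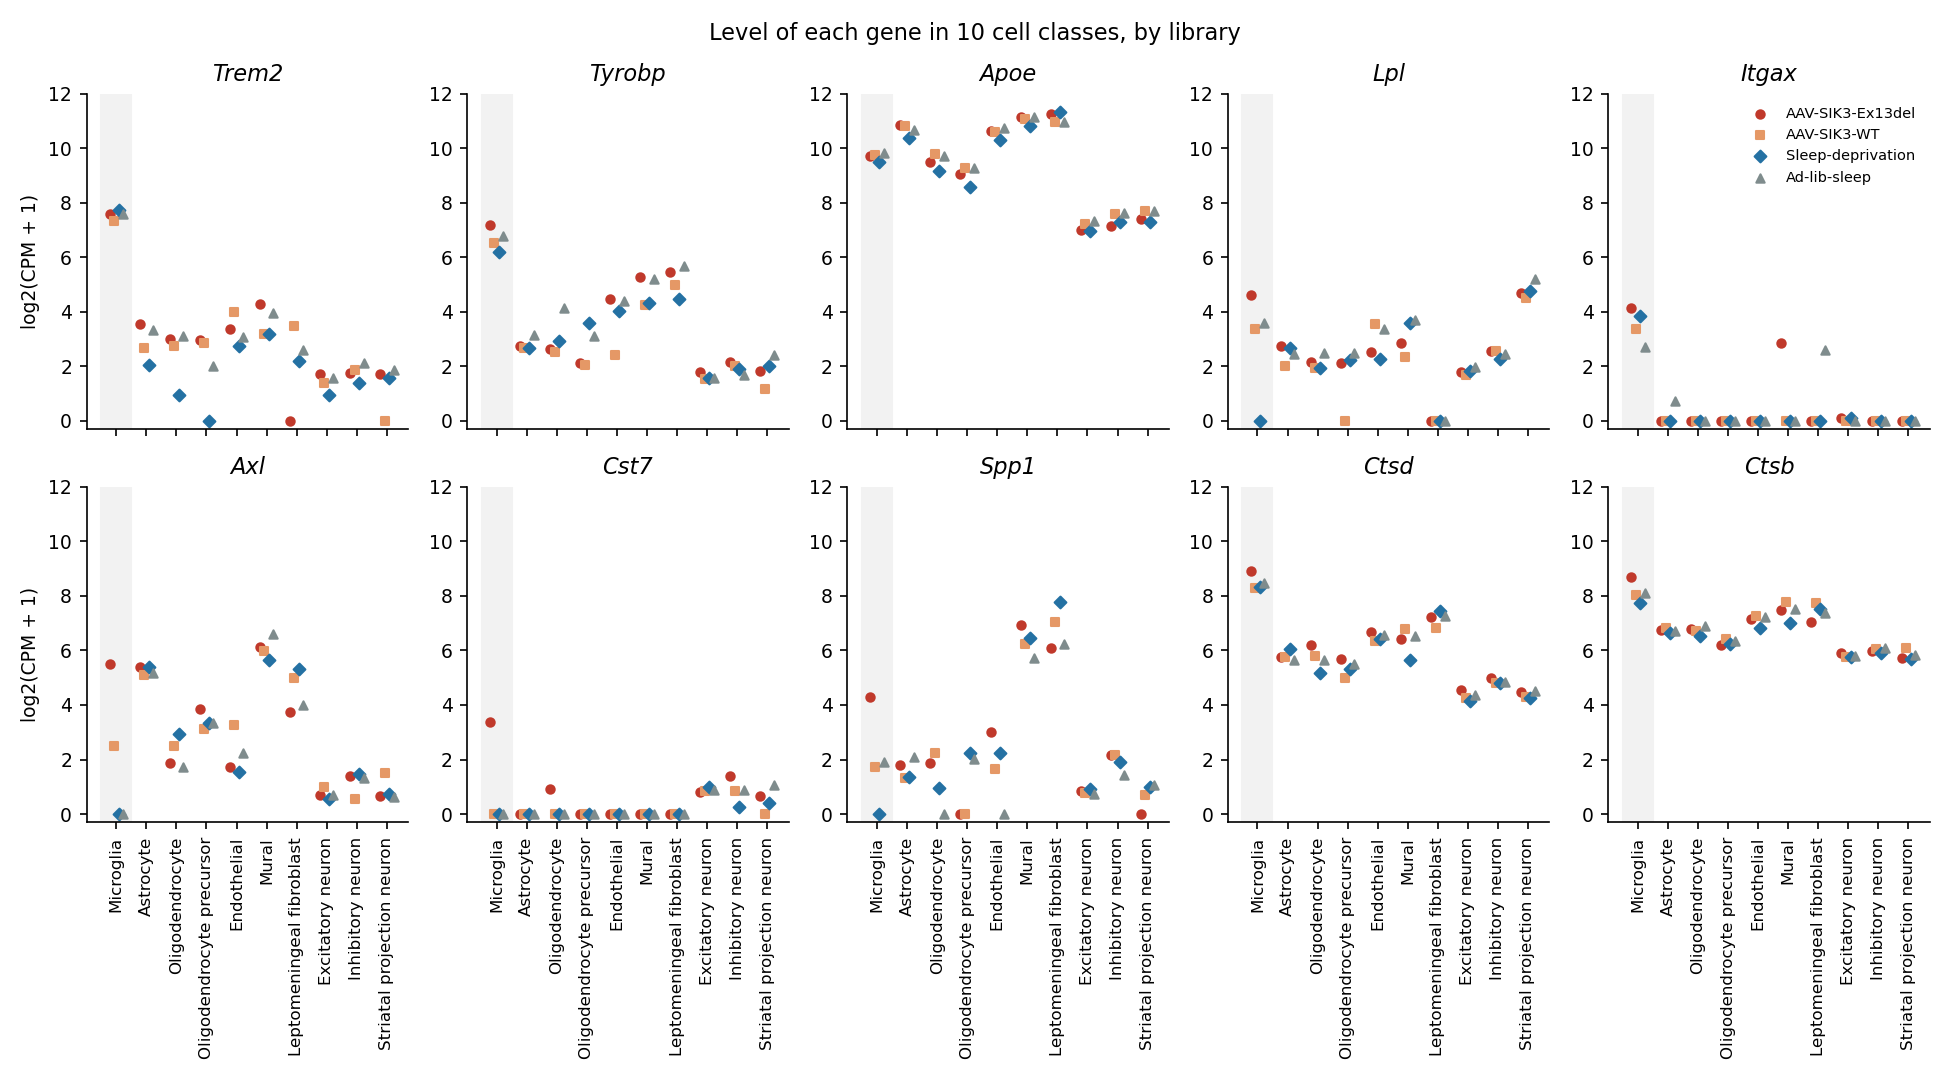
Each panel plots 1 gene as log2(CPM + 1) on the y axis in 10 cell classes on the x axis, with 1 symbol for each library and the microglia column shaded. Trem2 stands at 160 to 210 CPM in microglia and well under that in the other classes, while Apoe, Spp1, Axl and Lpl are highest outside microglia.

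Across the classes, the profile of each gene was set beside that of 16701 genes, over 36 class sums (9 classes in 4 libraries, which share their library and differ in depth), and the genes of highest Pearson correlation were named as a description. The profile of Trem2 was most like those of Ly86 (r = 0.94), Ctss (r = 0.94) and C1qc (r = 0.94), and that of Tyrobp like those of C1qa (r = 0.94), Erp29 (r = 0.93) and Unc93b1 (r = 0.92). Ctsd was most like C1qa (r = 0.97), Sec61g (r = 0.95) and Ctsb (r = 0.95), and Ctsb like Grn (r = 0.96), Ctsd and Akirin2 (r = 0.95). Apoe was most like Cd63, Cpt1a and Pon2, each with r = 0.95. Spp1 was most like Tbx18 (r = 0.90), Slc19a1 (r = 0.90) and Gprc5c (r = 0.87), and Axl like Gm20732 (r = 0.88) and AW011738 (r = 0.88). Lpl, with lower correlations, was most like Adora2a (r = 0.73), Serpina9 (r = 0.71) and Gm20456 (r = 0.68). The sum of the 6 genes that were highest in microglia was most like C1qa (r = 0.98), Unc93b1 (r = 0.96) and Grn (r = 0.96).

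In the comparison of AAV-SIK3-Ex13del with AAV-SIK3-WT, microglia of the AAV-SIK3-Ex13del library held more Axl, Ctsd, Ctsb and Tyrobp and about as much Apoe. A gene was counted as past the fold when its ratio was at least 1.5 in either direction, among genes with at least 20 UMIs over both libraries. Of the 10 genes, 6 had that many, and 4 of the 6 were past the fold higher, where 13.2% of all 8083 genes were. None of the 6 was past it lower, where 11.7% of all genes were. Their median log2 ratio was 0.63, beside 0.03 over all genes. Axl, with 19 and 2 UMIs, reached the minimum only through AAV-SIK3-Ex13del and so had to differ, and 3 of the other 5 genes were past the fold higher. Summed, the 10 genes reached 2188 CPM in AAV-SIK3-Ex13del microglia (936 UMIs) and 1717 CPM in AAV-SIK3-WT microglia (749 UMIs), a ratio of 1.27 (1.16 to 1.41).

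The receptor and its adaptor differed little or moderately. Trem2 stood at 192 CPM in AAV-SIK3-Ex13del microglia (82 UMIs), 160 in AAV-SIK3-WT (70), 210 in Sleep-deprivation (47) and 192 in Ad-lib-sleep (70). Its 4 intervals overlapped, and the ratio of AAV-SIK3-Ex13del to AAV-SIK3-WT was 1.19 (0.858 to 1.67). Tyrobp stood at 143 CPM in AAV-SIK3-Ex13del microglia (61 UMIs), 91.7 in AAV-SIK3-WT (40), 71.5 in Sleep-deprivation (16) and 107 in Ad-lib-sleep (39). AAV-SIK3-Ex13del was the highest of the 4, with a ratio to AAV-SIK3-WT of 1.56 (1.03 to 2.38).

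Apoe, the lipid carrier, stood at 844 CPM in AAV-SIK3-Ex13del microglia (361 UMIs), 864 in AAV-SIK3-WT (377), 715 in Sleep-deprivation (160) and 912 in Ad-lib-sleep (332). The AAV-SIK3-Ex13del and AAV-SIK3-WT libraries lay within counting error of each other, at a ratio of 0.977 (0.843 to 1.13), which ran from 0.838 to 1.28 over the alternatives. Lpl, the lipase, had 10 UMIs in AAV-SIK3-Ex13del microglia, 4 in AAV-SIK3-WT, 0 in Sleep-deprivation and 4 in Ad-lib-sleep, or 23.4, 9.17, 0 and 11.0 CPM. Its ratio of 2.55 (0.735 to 11.1) between AAV-SIK3-Ex13del and AAV-SIK3-WT was within counting error.

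Ctsd, an aspartic protease, stood at 486 CPM in AAV-SIK3-Ex13del microglia (208 UMIs), 316 in AAV-SIK3-WT (138), 317 in Sleep-deprivation (71) and 354 in Ad-lib-sleep (129). Ctsb, a cysteine protease, stood at 411 CPM in AAV-SIK3-Ex13del microglia (176 UMIs), 259 in AAV-SIK3-WT (113), 214 in Sleep-deprivation (48) and 275 in Ad-lib-sleep (100). For both proteases the AAV-SIK3-Ex13del library was the highest of the 4, and the interval of its level lay above those of the other 3 libraries. The ratio of AAV-SIK3-Ex13del to AAV-SIK3-WT was 1.54 (1.23 to 1.92) for Ctsd and 1.59 (1.25 to 2.03) for Ctsb.

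Axl, the phosphatidylserine receptor, had 19 UMIs in AAV-SIK3-Ex13del microglia (44.4 CPM, 26.7 to 69.4), 2 in AAV-SIK3-WT (4.58 CPM, 0.56 to 16.6), 0 in Sleep-deprivation and 0 in Ad-lib-sleep. These UMIs were in 7.69% of AAV-SIK3-Ex13del microglia and in 0.93% of AAV-SIK3-WT microglia. The ratio was 9.69 (2.34 to 85.8). At a 2-fold threshold Axl was the 1 gene past it, where 4.76% of all genes were, and nothing is read from this count because Axl was compared only through its high library. Itgax, the integrin chain, had 7 UMIs in AAV-SIK3-Ex13del microglia, 4 in AAV-SIK3-WT, 3 in Sleep-deprivation and 2 in Ad-lib-sleep, with a ratio of 1.78 (0.454 to 8.32) between AAV-SIK3-Ex13del and AAV-SIK3-WT.

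Spp1, the secreted ligand, had 8 UMIs in AAV-SIK3-Ex13del microglia, 1 in AAV-SIK3-WT, 0 in Sleep-deprivation and 1 in Ad-lib-sleep, and the ratio of AAV-SIK3-Ex13del to AAV-SIK3-WT was 8.16 (1.09 to 362). Cst7, the cathepsin inhibitor, had 4 UMIs in AAV-SIK3-Ex13del microglia and 0 in each of the other 3 libraries. Against a floor of 3 UMIs in AAV-SIK3-WT, Cst7 was at least 1.36-fold higher in AAV-SIK3-Ex13del, but the interval of the ratio began at 0.673, so the difference was within counting error. The 5 scarce genes (Axl, Lpl, Spp1, Itgax and Cst7) summed to 48 UMIs in AAV-SIK3-Ex13del microglia (112 CPM) and 11 UMIs in AAV-SIK3-WT microglia (25.2 CPM), a ratio of 4.45 (2.28 to 9.50). This group of 5 was chosen after their values were seen. The other 5 genes summed to a ratio of 1.23 (1.11 to 1.35).

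**Figure D2:**
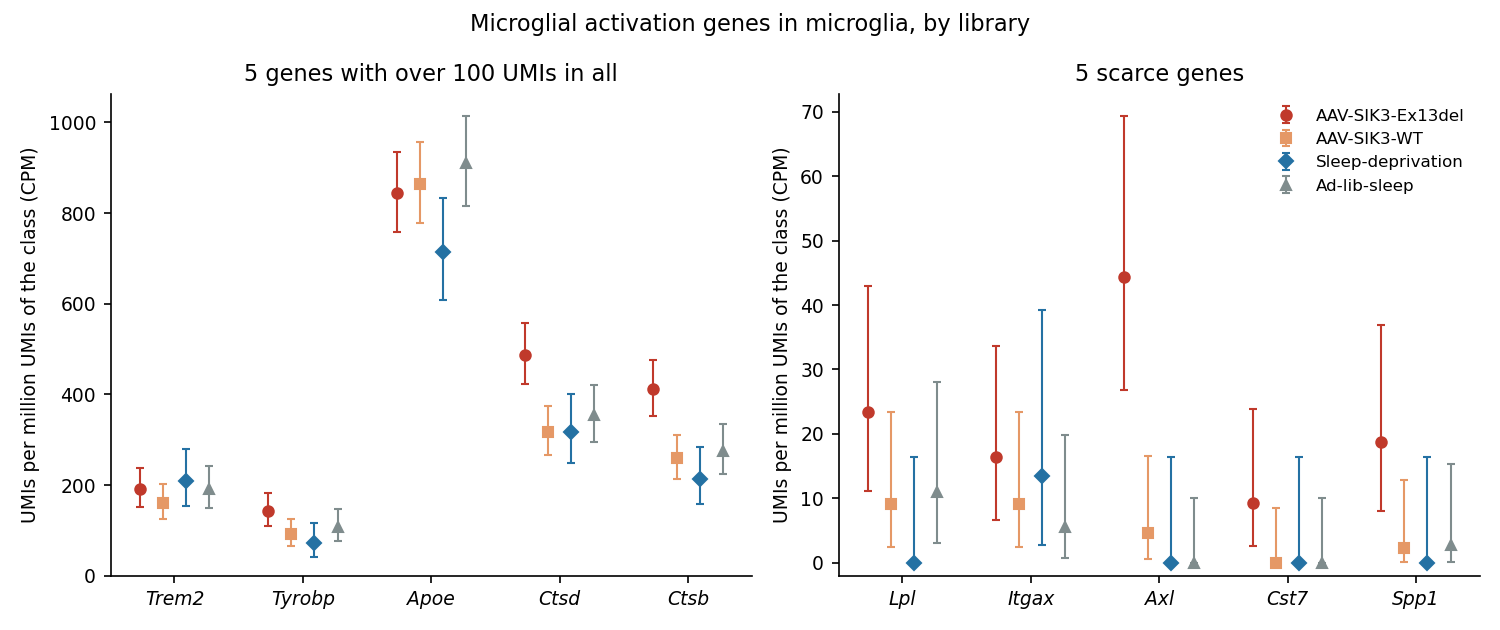
The y axis gives each gene's CPM in the microglial class, with exact Poisson 95% intervals, for 1 symbol a library. AAV-SIK3-Ex13del is the highest of the 4 libraries for Ctsd at 486 CPM, Ctsb at 411 CPM and Axl at 44.4 CPM, while Apoe runs from 715 to 912 CPM.

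**Figure D3:**
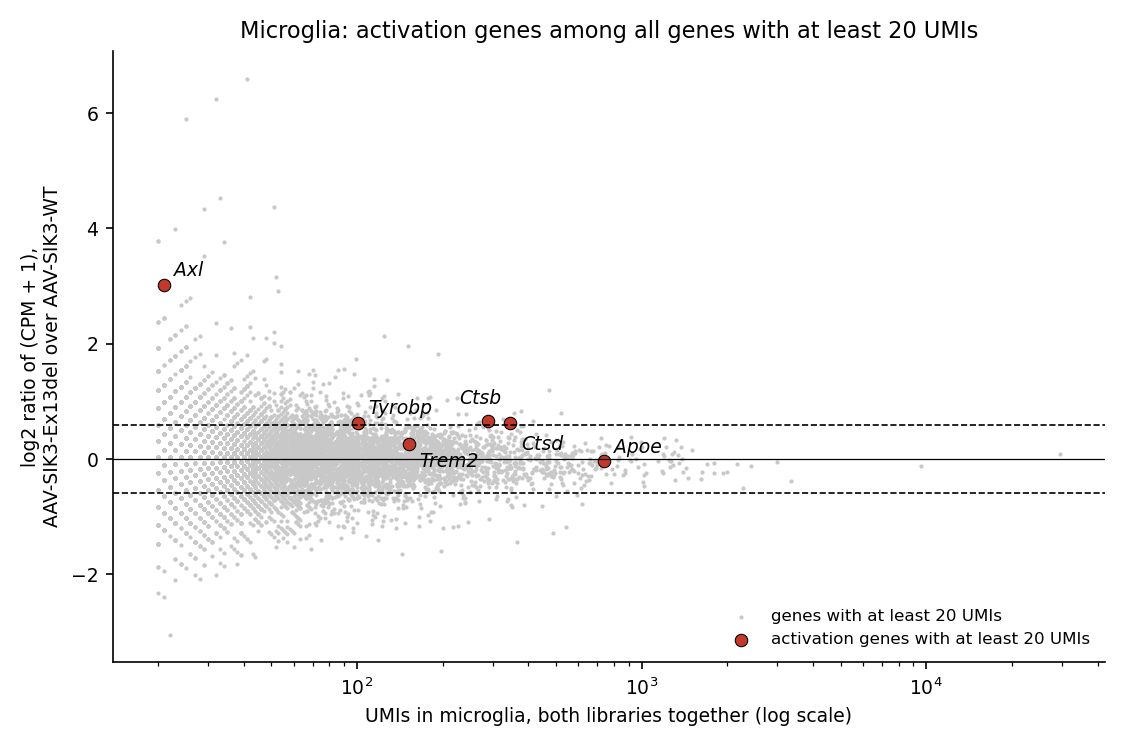
Each of the 8083 genes with at least 20 UMIs in microglia is 1 point, with the UMIs of both libraries on the log-scaled x axis and the log2 ratio of AAV-SIK3-Ex13del over AAV-SIK3-WT (CPM + 1) on the y axis, and the dashed lines stand at 1.5-fold. Tyrobp, Ctsd and Ctsb lie just past the upper line at ratios of 1.54 to 1.59, and Axl lies far above it at a ratio of 9.69, at the low end of the UMI axis.

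Genes of blood leukocytes differed along with this comparison. A list of 12 genes of blood leukocytes summed to 220 CPM in AAV-SIK3-Ex13del microglia, 18.3 in AAV-SIK3-WT, 13.4 in Sleep-deprivation and 32.9 in Ad-lib-sleep, with Skap1, a T cell adaptor, at 49 UMIs against 2 in AAV-SIK3-WT. Most of these UMIs of AAV-SIK3-Ex13del sat in a subcluster of 39, 28, 11 and 29 nuclei led by macrophage and leukocyte genes, without which the list summed to 16.4 CPM in AAV-SIK3-Ex13del and 16.4 CPM in AAV-SIK3-WT. Perivascular macrophage markers summed to 306 CPM in AAV-SIK3-Ex13del microglia, 321 in AAV-SIK3-WT, 371 in Sleep-deprivation and 266 in Ad-lib-sleep, with 2, 3, 3 and 1 of the 10 at 0 and Cbr2 at 0 in all 4. Between AAV-SIK3-Ex13del and AAV-SIK3-WT, the macrophage receptor Mrc1 had 20 and 55 UMIs, F13a1 26 and 10, and Stab1 a ratio of 1.04. Without the subcluster, Axl had 17 UMIs in AAV-SIK3-Ex13del and 2 in AAV-SIK3-WT, the 5 scarce genes had 43 and 10, and their ratio was 4.30 (2.13 to 9.60). Ctsd then had a ratio of 1.67, Ctsb of 1.54 and Tyrobp of 1.41, and the sum of the 10 genes a ratio of 1.31 (1.18 to 1.46).

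The count of 4 genes past 1.5-fold was the least firm of these values. Tyrobp, Ctsd and Ctsb stood just past the threshold, and Axl fell below 20 UMIs without nuclei holding macrophage UMIs (15 and 2) and without the subcluster (17 and 2). The count was 1 under a stricter filter on nuclei, at a clustering resolution of 2, without nuclei holding at least 2 macrophage UMIs or with the mixed cluster added. It was 2 without the subcluster. The 1 gene was Axl under the stricter filter (18 and 3 UMIs), at resolution 2 (18 and 3) and with the mixed cluster (20 and 3). Axl was compared there only through its high library, and Tyrobp, Ctsd and Ctsb stayed under the fold. Without nuclei holding macrophage UMIs the 1 gene was Tyrobp. The direction of Ctsd, Ctsb, Axl and Tyrobp was the same under all 15 alternatives, over which the ratio ran from 1.26 to 1.67 for Ctsd, 1.27 to 1.71 for Ctsb, 1.18 to 1.59 for Tyrobp and 1.84 to 12.2 for Axl. Some of the 15 were no check of this. The UMI minimum, the pseudocount and the fold cannot change a gene's CPM ratio, and TMM scales all genes of a library alike.

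The 5 more abundant genes were met in a large share of microglia. Trem2 had a UMI in 29.8% of AAV-SIK3-Ex13del microglia, 24.8% in AAV-SIK3-WT, 42.5% in Sleep-deprivation and 24.3% in Ad-lib-sleep, and with each nucleus thinned to 1000 UMIs in 17.1%, 16.6%, 19.8% and 17.7%. Excitatory neurons thinned alike gave 0.16% to 0.46% for Trem2 and 0.19% to 0.32% for Tyrobp. Tyrobp had a UMI in 11.2%, 9.84%, 7.41% and 11.4% of thinned microglia in the same order of libraries, and in 22.1%, 15.9%, 16.1% and 15.8% before thinning. At equal depth the 4 libraries were thus close to each other for the receptor and its adaptor, far above the neurons.

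Ctsd had a UMI in 35.8% of thinned AAV-SIK3-Ex13del microglia, 26.4% in AAV-SIK3-WT, 27.2% in Sleep-deprivation and 27.4% in Ad-lib-sleep, and in 1.84% to 2.54% of thinned excitatory neurons. Before thinning these shares of microglia were 51.0%, 43.0%, 55.2% and 42.8%. The AAV-SIK3-Ex13del share was the highest at equal depth only, since Sleep-deprivation nuclei were deeper. Ctsb had a UMI in 31.6%, 23.3%, 17.3% and 24.6% of thinned microglia in that order, 47.6%, 36.9%, 40.2% and 34.2% before thinning, and in 4.88% to 7.54% of thinned excitatory neurons. Apoe had a UMI in 69.7%, 73.8%, 78.2% and 68.5% of microglia and in 70.5%, 75.1%, 80.5% and 71.1% of excitatory neurons, whose nuclei are deeper. Thinned, Apoe was met in 43.9%, 52.3%, 44.4% and 56.6% of microglia and in 14.3%, 17.6%, 15.5% and 17.4% of excitatory neurons.

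The scarce genes were met in few nuclei. At least 1 of the 5 had a UMI in 28 of 208 AAV-SIK3-Ex13del microglia (13.5%, 9.14 to 18.9), 10 of 214 AAV-SIK3-WT microglia (4.67%, 2.26 to 8.43), 3 of 87 Sleep-deprivation microglia (3.45%) and 7 of 222 Ad-lib-sleep microglia (3.15%). The median depth of those classes was 1862, 1743.5, 2390 and 1404.5 UMIs a nucleus. Excitatory neurons, a class without immune function that had median depths of 9910, 9126, 13772.5 and 7370 UMIs, gave 4.71%, 4.44%, 6.64% and 3.90%. At these unequal depths, AAV-SIK3-Ex13del microglia lay above the neurons of their own library, AAV-SIK3-WT microglia close to theirs, and microglia of the other libraries below theirs.

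With each nucleus thinned to 1000 UMIs, the share was 8.56% of AAV-SIK3-Ex13del microglia (16 of 187), 2.59% of AAV-SIK3-WT microglia (5 of 193), 0 of 81 Sleep-deprivation microglia (upper bound 4.45%) and 2.29% of Ad-lib-sleep microglia (4 of 175). Thinning left out 21, 21, 6 and 47 shallower microglia in the same order. Excitatory neurons thinned alike gave 0.56%, 0.40%, 0.63% and 0.64%. At equal depth the microglial shares thus lay above the neuronal ones in 3 libraries, and AAV-SIK3-Ex13del had the highest. In Ad-lib-sleep the intervals overlapped, at 0.63% to 5.75% in microglia and 0.41% to 0.95% in neurons. Thinning equalises depth but not the share of free RNA in a nucleus, which was not measured.

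**Figure D4:**
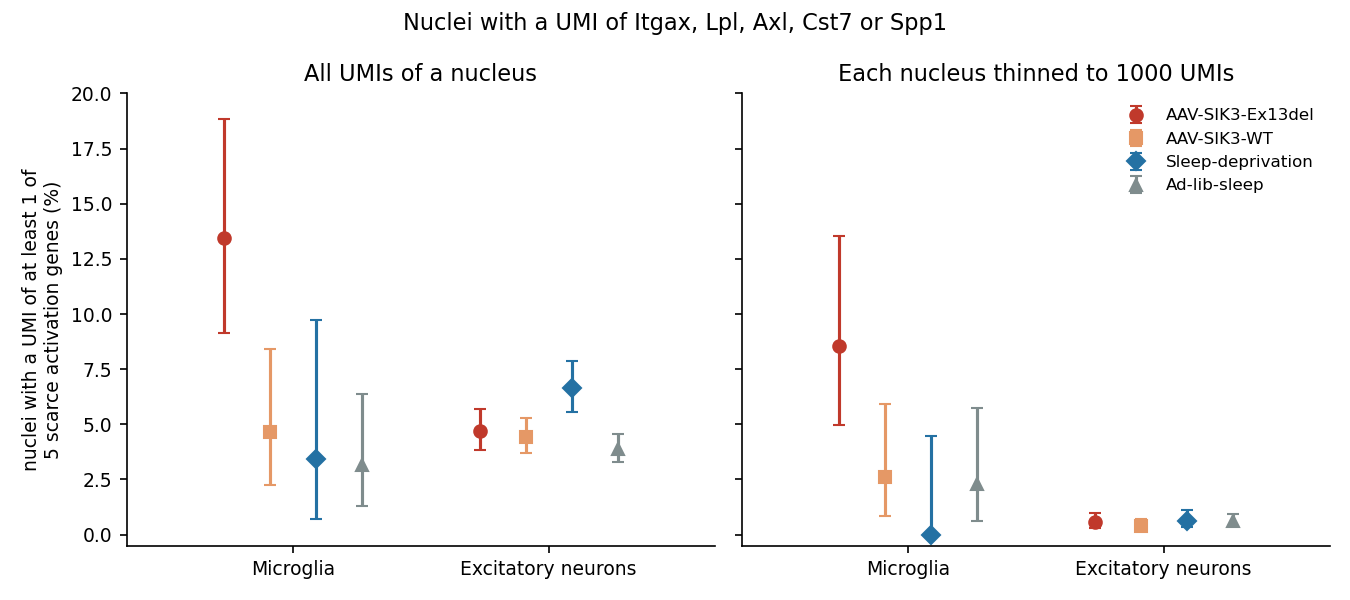
The y axis gives the share of nuclei with a UMI of Itgax, Lpl, Axl, Cst7 or Spp1 in microglia and excitatory neurons of each library, with exact Clopper-Pearson 95% intervals, from all UMIs on the left and after thinning to 1000 UMIs on the right. AAV-SIK3-Ex13del microglia are the highest at 13.5% and, thinned, 8.56%, while thinned neurons lie at 0.40% to 0.64%.

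Of the AAV-SIK3-Ex13del microglia, 6 nuclei held UMIs of 2 or more of the scarce genes, and 4 of these held 3, against 1 nucleus in AAV-SIK3-WT and 0 in the Sleep-deprivation and Ad-lib-sleep libraries. None of the 6 was in the macrophage- and leukocyte-led subcluster. Axl was in 5 of the 6, in the combinations Cst7 with Spp1 and Axl, Itgax with Spp1 and Axl, Spp1 with Lpl and Axl, Spp1 with Axl, and Lpl with Axl. The sixth held Itgax, Spp1 and Lpl. The first of them was deep, at 8480 UMIs against a class median of 1862, and carried 98 UMIs of the vector's own row. The doublet step kept it, and whether it held more than 1 nucleus was not tested further. The second held 51 Apoe UMIs. Without those 2 nuclei, AAV-SIK3-Ex13del microglia held 17 Axl UMIs, 198 Ctsd UMIs, 166 Ctsb UMIs and 306 Apoe UMIs, and the ratio of the summed 10 genes to AAV-SIK3-WT was 1.19.

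The 28 AAV-SIK3-Ex13del nuclei with a scarce gene also differed from the other 180 in genes that did not pick them, at median depths of 2395.5 and 1755 UMIs. P2ry12, a purine receptor of resting microglia, stood at 314 CPM (197 to 476) in the 28 nuclei and 679 CPM (597 to 770) in the 180. Siglech, a lectin of resting microglia, stood at 271 CPM (163 to 424) and 668 CPM (586 to 758). Those intervals did not overlap, while those of 3 other resting-state genes did: Cx3cr1 stood at 600 CPM in the 28 nuclei and 822 CPM in the 180, Csf1r at 485 and 699 CPM, and Tmem119 at 85.7 and 117 CPM. In Sleep-deprivation, with 3 such nuclei, P2ry12 went the other way, at 803 CPM in the 3 nuclei and 757 CPM in the other 84, and so did Siglech, at 1606 and 767 CPM. In AAV-SIK3-WT, with 10 such nuclei, P2ry12 was also lower, at 418 and 711 CPM, and Siglech at 325 and 685 CPM. Ad-lib-sleep, with 7 such nuclei, had P2ry12 at 596 and 937 CPM and Siglech at 199 and 745 CPM. The lower P2ry12 and Siglech were thus not particular to AAV-SIK3-Ex13del. Ctsd stood at 842 CPM (641 to 1087) in the 28 nuclei and 416 CPM (352 to 489) in the 180, and Ctsb at 857 CPM (654 to 1103) and 324 CPM (268 to 389). In AAV-SIK3-WT Ctsd stood at 650 and 299 CPM and Ctsb at 279 and 258 CPM. In Sleep-deprivation they stood at 703 and 299 CPM and at 201 and 215 CPM, and in Ad-lib-sleep at 265 and 358 CPM and at 464 and 266 CPM. Apoe stood at 1842 CPM in the 28 nuclei and 648 CPM in the 180, with 51 of the 129 UMIs of the 28 in 1 nucleus. The 28 nuclei included 4 of the subcluster and 3 with at least 2 macrophage UMIs, against 35 and 14 of the 180, and nuclei of 1 library are no replicates. The deep nucleus with 98 vector UMIs was 1 of the 28 and held 8480 of their 70034 UMIs.

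Genes of the same program that are no members were counted next, from a list of 26 further activation genes, of which 25 had a row. With at least 20 UMIs, 19 could be compared between AAV-SIK3-Ex13del and AAV-SIK3-WT, of which 15 were higher, 4 lower, and 10 past 1.5-fold higher, where 51.7% of all genes were higher and 13.2% past 1.5-fold higher. Their median log2 ratio was 0.71, beside 0.03 over all 8083 genes. The chemokine Ccl4 had 47 UMIs in AAV-SIK3-Ex13del microglia and 6 in AAV-SIK3-WT, a ratio of 7.99 (3.41 to 22.9). The growth factor Csf1 had 35 and 7 UMIs (5.10-fold), the inhibitory receptor Lilrb4a 42 and 9 (4.76-fold) and the surface protein Cd83 37 and 11 (3.43-fold). Ccl4, Csf1, Lilrb4a, Cd52 and Lyz2 had at most 10 UMIs in AAV-SIK3-WT and reached 20 through AAV-SIK3-Ex13del. These genes thus had to be higher, all of them are among the 10 past the fold, and nothing is read from their part in the counts. The median of the list was lower with at least 50 UMIs, as given below.

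Cd52, a surface glycoprotein of immune cells, had a ratio of 5.51 and lysozyme Lyz2 of 2.04. The hypoxia factor Hif1a had a ratio of 2.71, cathepsins Ctsz and Ctsl of 2.28 and 1.80, and the tetraspanin Cd9 of 1.64. Among abundant genes of the list, B2m of the MHC class I complex had a ratio of 1.28 and the ferritin chain Fth1 of 0.773 (0.691 to 0.863), at 1321 CPM in AAV-SIK3-Ex13del and 1710 CPM in AAV-SIK3-WT. Without the macrophage- and leukocyte-led subcluster, 17 genes of the list could be compared, 14 were higher and 8 past 1.5-fold, with a median of 0.30. Ccl4 then had 41 and 6 UMIs (6.84-fold), Csf1 35 and 7, and Lilrb4a 38 and 8 (4.75-fold), while Cd52 and Lyz2 no longer had 20 UMIs.

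**Figure D5:**
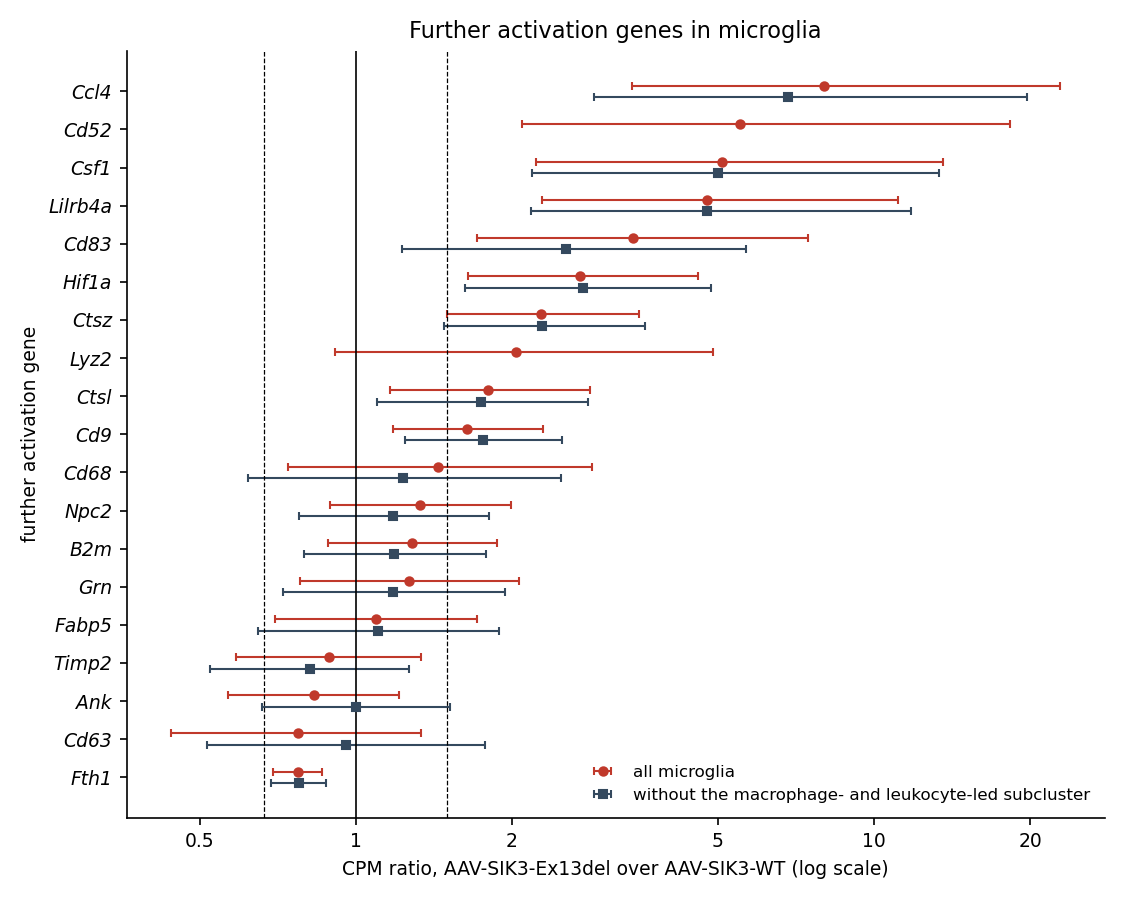
The log-scaled x axis gives the CPM ratio of AAV-SIK3-Ex13del over AAV-SIK3-WT microglia with its exact 95% interval for each further activation gene, in all microglia (circles) and without the macrophage- and leukocyte-led subcluster (squares), with dashed lines at 1.5-fold in each direction. Ccl4 is at the top at 7.99 in all microglia and 6.84 without the subcluster, and Fth1 is at the bottom at 0.773.

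Genes of resting microglia did not share that direction. Of 16, all of which could be compared, 6 were higher and 10 lower in AAV-SIK3-Ex13del, 1 was past 1.5-fold (the fructose transporter Slc2a5, 33 and 56 UMIs, ratio 0.601), and the median was −0.14. Among the most abundant were the transcription factor Mef2c with 640 and 816 UMIs and the phagocytic receptor Mertk at a ratio of 0.957. Summed, the 16 had a ratio of 0.941 (0.904 to 0.980), from 4522 and 4900 UMIs. Mef2c alone made up a large part of that difference, and the ratio without Mef2c was not computed.

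Among 17 genes of Trem2 signalling, 16 could be compared, 12 were higher, and 2 were past 1.5-fold, a share close to the 13.2% of all genes, with a median of 0.22. The 2 genes were Adam17, a protease that sheds Trem2 from the surface, at 1.53 and the phosphatase Ptpn6 at 2.04, while the phosphatase Inpp5d stood at 0.976, the kinase Lyn at 1.17 and Bin1 at 0.783. Among 16 partners of Apoe and lipid handling, 8 could be compared, 3 were higher and 1 was past 1.5-fold, also close to that share, with a median of −0.05. The Apoe receptor Vldlr stood at 1.89 (13 and 7 UMIs), the lipid exporter Abca1 at 0.978, the receptor Lrp1 at 1.03 and Sorl1 at 0.680.

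Among 14 ligands and receptors of the members, 12 could be compared, 6 were higher and 6 lower, with a median of −0.01. Cd44, a receptor of Spp1, stood at 5.10 (20 and 4 UMIs, compared only through AAV-SIK3-Ex13del), Itgb2, the integrin chain that pairs with Itgax, at 2.19 (30 and 14 UMIs), and Icam1, a ligand of such integrins, at 1.85. Itgb2 stood at 1.79 without the subcluster, and Mertk, a relative of Axl, at 0.957 in all microglia. Itgb5 stood at 0.972 and Itgam at 0.826. Among 17 other cathepsins, their inhibitors and lysosomal regulators, 16 could be compared, and 11 were higher, with a median of 0.29. Past 1.5-fold higher were 4 of the 16 (Ctsz, Ctsl, Ctsa at 1.51 and the transcription factor Tfe3 at 1.96), where 13.2% of all genes were. Ctsz and Ctsl are also in the list of further activation genes and were already counted there. Their most abundant genes were the inhibitor Cst3 at 0.988, the saposin precursor Psap at 0.931 and Ctss at 1.27.

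In the comparison of Sleep-deprivation with Ad-lib-sleep, the 10 genes summed to 1541 CPM in Sleep-deprivation microglia (345 UMIs) and 1859 CPM in Ad-lib-sleep microglia (677 UMIs), a ratio of 0.829 (0.726 to 0.945). Of the 5 genes with at least 20 UMIs, 0 were past 1.5-fold higher and 0 lower, where 12.7% and 13.6% of all 6472 genes were. Their median log2 ratio was −0.35, beside 0.01 over all genes. Apoe made up the largest part of the difference in the sum, at 715 and 912 CPM, with a ratio of 0.784 (0.645 to 0.949). Tyrobp had a ratio of 0.667 (0.348 to 1.22), Ctsb of 0.781 (0.541 to 1.11), Ctsd of 0.895 (0.660 to 1.21) and Trem2 of 1.09. The intervals of these 4 genes include a ratio of 1. Of the scarce genes, Sleep-deprivation microglia held 3 UMIs of Itgax, against 2 in Ad-lib-sleep microglia, a ratio of 2.44 (0.279 to 29.2). They held none of Axl, Cst7, Lpl or Spp1.

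The lower Apoe in Sleep-deprivation was not seen in microglia alone. In astrocytes, the main source of brain Apoe, it stood at 1317 CPM in Sleep-deprivation and 1632 CPM in Ad-lib-sleep, a ratio of 0.807 (0.759 to 0.858), and in excitatory neurons at 125 and 158 CPM, a ratio of 0.788 (0.755 to 0.823). Mural cells had 1777 and 2245 CPM, endothelial cells 1249 and 1723 CPM, and oligodendrocytes 572 and 840 CPM. Leptomeningeal fibroblasts went the other way, at 2589 and 1992 CPM, and so did the unnamed cluster of low depth, at 1359 and 1168 CPM, a ratio of 1.16 (1.07 to 1.27). Free RNA of a library can reach nuclei of every class. With the excitatory neuron level of the same library subtracted, the microglial ratio of Apoe was 0.783. This subtraction cannot show how much microglial Apoe was free RNA, because the ratio in neurons was itself 0.788 and neurons are deeper. Without nuclei with at least 2 macrophage UMIs the microglial ratio of Apoe was 0.704, and it ran from 0.535 to 0.797 over all 15 alternatives. Adding the mixed cluster, which held 40 nuclei in Sleep-deprivation and 61 in Ad-lib-sleep, moved the summed ratio to 0.573.

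Between Sleep-deprivation and Ad-lib-sleep microglia, 12.7% of all genes were past 1.5-fold higher and 13.6% lower, and the related lists were set beside these shares. Of 13 further activation genes, 3 were higher and 10 lower, where 51.1% of all genes were higher, with a median of −0.12 beside 0.01 over all genes. Past the fold lower were 2 of the 13, close to the share of all genes, and none was past it higher. Cd9 had 11 and 57 UMIs, a ratio of 0.314 (0.148 to 0.605). Cd63, a tetraspanin of lysosomes, stood at 0.626, and the most abundant of the list, Fth1, Ctsl and the fatty acid carrier Fabp5, stood at 1.04, 0.917 and 0.813. Of 16 resting-state genes, 9 were higher, and Tmem119 was past the fold at 1.85 (33 and 29 UMIs), with a median of 0.06. Of 14 Trem2 signalling genes, 10 were higher, with a median of 0.23 and a summed ratio of 1.27 (1.18 to 1.37). They included Inpp5d at 1.44, Lyn at 1.41 and Bin1 at 1.37, while Ms4a6d stood at 1.95 (12 and 10 UMIs) and the sialic acid receptor Cd33 at 0.654 (45 and 112 UMIs).

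The lists of Apoe partners, ligands and receptors, and cathepsins showed 1 gene each past the fold, where 12.7% of all genes were past it higher and 13.6% lower. Of 7 Apoe and lipid partners, 3 were higher, with a median of −0.23 but a summed ratio of 1.03, and Vldlr stood at 0.651. Of 10 ligands and receptors, 8 were higher, with a median of 0.07, Itgb2 at 0.444 (6 and 22 UMIs), Mertk at 1.28 and Itgb5 at 1.34. Of 14 cathepsins and regulators, 6 were higher, with a median of −0.12 and Ctsa at 1.83. Among perivascular macrophage markers, Stab1 had 51 and 37 UMIs in this comparison, a ratio of 2.24, F13a1 a ratio of 0.542 and Mrc1 of 0.887. Without nuclei with at least 2 macrophage UMIs the summed ratio of the 10 genes was 0.755 (0.648 to 0.877).

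In the comparison of AAV-SIK3-WT with Ad-lib-sleep, which differ in the injection, the vector and the added SIK3 at once, so that these cannot be told apart, 0 of 5 genes were past 1.5-fold higher and 0 lower, where 11.8% and 10.9% of all 7730 genes were. Their median log2 ratio was −0.16, beside 0.03 over all genes. Apoe had a ratio of 0.948, Trem2 of 0.835, Tyrobp of 0.856, Ctsd of 0.893 and Ctsb of 0.943. The sum stood at 1717 CPM in AAV-SIK3-WT microglia and 1859 CPM in Ad-lib-sleep microglia, a ratio of 0.923 (0.831 to 1.03). Its direction was not stable, since it was 1.29 under the stricter filter on nuclei and 1.13 with the mixed cluster added. The 5 scarce genes had 11 and 7 UMIs, a ratio of 1.31 (0.464 to 3.99). This comparison shares its AAV-SIK3-WT and Ad-lib-sleep libraries with the comparisons above.

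The related lists were divided in this comparison as well. Of 13 further activation genes, 6 were higher and 7 lower, where 52.5% of all genes were higher, with Ank (65 and 34 UMIs), Grn at 1.53, Fabp5 at 0.658 and Ctsl at 0.516 past the fold. Their median lay within 0.01 of 0. None of the 16 resting-state genes was past the fold, and 5 were higher, with Mef2c at 1.11 and Mertk at 1.15. Of 15 Trem2 signalling genes, 9 were higher, with Vav3 at 1.79, Inpp5d at 1.17, Lyn at 1.09 and Bin1 at 1.18. Past the fold in the other lists were Soat1 at 1.63 and Vldlr at 0.390, Tyro3, a relative of Axl, at 1.67 and Itgb2 at 0.531, and the lysosomal genes Ctsf at 1.67, Tfeb at 1.52, Ctso at 0.626 and Ctsl. The abundant inhibitor Cst3 stood at 0.750 (0.673 to 0.836), Psap at 0.981 and Ctss at 1.04. Of the perivascular macrophage markers, Mrc1 had 55 UMIs in AAV-SIK3-WT and 22 in Ad-lib-sleep, F13a1 10 and 27, and Stab1 a ratio of 1.38.

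In astrocytes the AAV-SIK3-Ex13del and AAV-SIK3-WT libraries differed less. Apoe stood at 1837 CPM in AAV-SIK3-Ex13del astrocytes and 1780 CPM in AAV-SIK3-WT astrocytes, a ratio of 1.03 (0.974 to 1.09), and the 10 genes summed to a ratio of 1.04 (0.980 to 1.09). Axl stood at 40.7 CPM in AAV-SIK3-Ex13del, 32.9 in AAV-SIK3-WT, 40.7 in Sleep-deprivation and 34.7 in Ad-lib-sleep, and its ratio of AAV-SIK3-Ex13del to AAV-SIK3-WT was 1.24 (0.806 to 1.90), against 9.69 in microglia. The interval in microglia lay above that in astrocytes, and both cover counting error only. Over the alternatives the ratio of Axl ran from 1.84 to 12.2 in microglia and from 1.23 to 2.23 in astrocytes. Axl was compared in microglia only through its high library, so no difference between the classes is read from this. Ctsd stood at 53.8 and 53.6 CPM and Ctsb at 107 and 111 CPM in AAV-SIK3-Ex13del and AAV-SIK3-WT astrocytes.

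Of the 5 genes that could be compared in astrocytes, 1 was past 1.5-fold higher in AAV-SIK3-Ex13del, where 7.75% of all genes were, and 0 lower, where 6.59% were. It was Trem2, with 13 UMIs in AAV-SIK3-Ex13del and 7 in AAV-SIK3-WT. In AAV-SIK3-WT against Ad-lib-sleep, Trem2 was also the gene past the fold, lower with 7 and 14 UMIs, where 8.67% of all genes were past the fold lower, and none of the 5 was past it higher, where 6.51% were. Trem2 thus passed on few UMIs in a class where it averaged 7.01 CPM. In Sleep-deprivation against Ad-lib-sleep none of 4 astrocyte genes was past the fold, where 8.56% were higher and 10.6% lower, and Ctsd had a ratio of 1.32 (0.955 to 1.81).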

How the data were processed

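Nuclei of 4 libraries, 1 for each group, were compared, so that groups were taken from the sample labels and no replicate existed. The deposited files hold raw UMI counts per gene and cell barcode, which the authors made with Cell Ranger 6.1.2 on the mm10 build, per the submitters' processing notes. Barcodes with at least 500 genes and under 5% mitochondrial UMIs were scored for doublets with Scrublet in scanpy 1.11.5. Its automatic threshold called 4, 0, 0 and 0 barcodes, so the highest scores were removed at 0.8% for each 1000 barcodes (307, 377, 297 and 696 barcodes in the AAV-SIK3-Ex13del, AAV-SIK3-WT, Sleep-deprivation and Ad-lib-sleep libraries).

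The remaining nuclei were clustered on 2000 variable genes, 30 principal components of library-centred values and 15 neighbours, with the Leiden method of igraph, called through scanpy, at resolution 1. Genes of the lists (other than macrophage and leukocyte genes), the vector row, mitochondrial genes and X-inactivation and Y-linked genes stayed out of the clustering. Clusters were named from fixed marker genes. A marker counted as detected at 0.25 of its level in its top cluster, a class needed at least 0.5 of its markers (0.7 for excitatory neurons) and at least 3 of them, and these thresholds were set after seeing the data.

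For each library and class the UMIs of all its nuclei were added up and scaled to 1000000 UMIs (CPM). Log2 ratios use a pseudocount of 1 CPM. All genes with at least 20 UMIs over both libraries of a comparison form the background, and of each list every such gene was counted, while the 3 most abundant and those past 1.5-fold were the ones to be named. Like profiles were named as the 3 genes of highest Pearson correlation for each member with at least 200 UMIs. A few genes that these rules pick are not reported here. Depth sets the precision, since microglia held 427789, 436334, 223922 and 364212 UMIs in the same order. The members and the gene lists were chosen with earlier results of these data known. The summing and the calls were tested on simulated counts. Alternatives covered the filter, doublets, clustering, thinning, TMM scaling (edgeR 4.0.16), free RNA, macrophage UMIs, the UMI minimum, the pseudocount and the fold. Leaving out the subcluster, adding the mixed cluster and leaving out 2 nuclei were alternatives chosen after seeing the data. Promoter windows came from a RefSeq table and gene positions from GENCODE vM21.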

Additional observations from a re-analysis of the deposited data

Results flagged for a closer look

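The row of the viral vector (WPRE_pA), which none of the comparisons uses, had UMIs in microglia of both injected libraries although the vector's synapsin promoter is active in neurons. It stood at 351 CPM in AAV-SIK3-Ex13del microglia (150 UMIs in 49 nuclei) and 98.5 CPM in AAV-SIK3-WT microglia (43 UMIs in 38 nuclei). Sleep-deprivation and Ad-lib-sleep microglia had 0 UMIs, which allows levels of up to 13.4 and 8.24 CPM. In AAV-SIK3-Ex13del, 98 of the 150 UMIs were in 1 nucleus of 8480 UMIs, the nucleus with Cst7, Spp1 and Axl, and the level was 124 CPM without it. This nucleus was kept by the doublet step but was far deeper than the class median of 1862 UMIs, near the 9910 of excitatory neurons, and whether it held a neuron as well was not tested. Excitatory neurons of the same libraries stood at 127 and 45.7 CPM. The row was not particular to microglia, since every class of both libraries had UMIs of it. It stood at 131 and 106 CPM in endothelial cells, 97.9 and 73.7 in oligodendrocytes and 70.9 and 72.7 in astrocytes. Mural cells were lower, at 40.3 and 46.2 CPM, and the unnamed cluster of low depth stood at 330 and 210 CPM.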

How the results depend on the processing

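Over 15 alternatives no direction of a called value was reversed, and the summed ratio of AAV-SIK3-Ex13del over AAV-SIK3-WT in microglia ran from 1.16 to 1.35. The alternatives of the UMI minimum, the pseudocount and the fold could not reverse the direction of a gene. The count of genes past 1.5-fold in that comparison, reported as 4, was 1 under the stricter filter, at resolution 2, without nuclei with macrophage UMIs, at a 2-fold threshold and with the mixed cluster added. That 1 gene was Tyrobp without nuclei with macrophage UMIs. In the other settings just named it was Axl, which was compared only through its high library. The count was 2 with no doublets removed, after thinning, without the subcluster and without 2 nuclei (the one of most vector UMIs and the one of most Apoe UMIs). The median of the further activation genes, reported as 0.71, was 0.17 at resolution 2, 0.39 with microglia taken as nuclei with at least 3 markers, 0.38 with at least 50 UMIs and 0.30 without the subcluster.

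The summed ratio of Sleep-deprivation over Ad-lib-sleep, reported as 0.829, was 0.652 under the stricter filter, 0.695 with no doublets removed, 0.698 at resolution 2 and 0.573 with the mixed cluster added. In the same order the ratio of AAV-SIK3-WT over Ad-lib-sleep, reported as 0.923, was 1.29, 1.07, 1.04 and 1.13. The share of AAV-SIK3-Ex13del microglia with UMIs of at least 2 of the 10 genes, 71.6%, was 81.9% under the stricter filter, 64.6% with at least 3 markers and 47.6% after thinning. With nuclei of at least 3 markers, 2 of the 10 genes rather than 6 were highest in microglia. Of 678, 686, 548 and 871 such nuclei, 178, 193, 81 and 200 were in the microglial class.

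In astrocytes the count for AAV-SIK3-Ex13del over AAV-SIK3-WT, 1, was 0 under the stricter filter, with at least 50 UMIs and at 2-fold. That for AAV-SIK3-WT over Ad-lib-sleep, 0 higher, was 1 with no doublets removed, and that for Sleep-deprivation over Ad-lib-sleep, 0, was 1 after thinning and with free RNA subtracted. The cause of these shifts was not tested. The 3 UMI floor was 7.01, 6.88, 13.4 and 8.24 CPM in microglia, the level that 0 UMIs of a scarce gene still allow. No paired analysis was possible because each group had 1 library.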

Other observations

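The share of microglia with UMIs of at least 2 of the 10 genes was 71.6% in AAV-SIK3-Ex13del, 64.5% in AAV-SIK3-WT, 74.7% in Sleep-deprivation and 60.8% in Ad-lib-sleep. After thinning to 1000 UMIs it was 47.6%, 39.4%, 37.0% and 38.3%, so Sleep-deprivation had the highest share before thinning and the lowest after it. The macrophage- and leukocyte-led subcluster, pooled over the libraries, held 1142 CPM of Apoe and 63.0 CPM of Trem2, against 794 and 207 CPM in the other microglia. Ptprc, the common leukocyte antigen, stood at 769 CPM in AAV-SIK3-Ex13del microglia, 440 in AAV-SIK3-WT, 406 in Sleep-deprivation and 398 in Ad-lib-sleep.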
